A study of Rattus norvegicus with 18 samples.

Results

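The genes described here encode the enzymes and carriers that take glucose to pyruvate, exchange pyruvate with lactate, and feed pyruvate into the citrate cycle. A list of 35 genes was drawn up, and a gene entered when a row of the count table bore its name. In all, 34 of the 35 had such a row, among 34873 genes in the table, and all 34 passed the filter on low counts that left 16581 genes for testing. No row bore the name Pdha1, the catalytic subunit of pyruvate dehydrogenase, and the row LOC100365902, annotated with that protein, is given apart from the members.

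Glycolysis splits glucose into pyruvate in the cytosol and yields ATP without oxygen. Lactate dehydrogenase then converts pyruvate to lactate, which monocarboxylate carriers move between cells, and in the brain astrocytes and oligodendrocytes are known to pass lactate to neurons. When oxygen is short, the transcription factor HIF-1 is known to raise the mRNA of glucose carriers, glycolytic enzymes and pyruvate dehydrogenase kinases. Carbon monoxide binds haemoglobin in place of oxygen and so lowers the oxygen that blood delivers.

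RNA was sequenced from rat brain in 18 libraries, 6 in each of 3 groups. NC rats were wild type with no treatment named. CO rats were wild type and breathed carbon monoxide, at 1000 ppm for 40 min and then 3000 ppm for 20 min. CLCF1 rats breathed the same gas and are labelled as a knock-down of Clcf1, a cytokine of the interleukin-6 family. The study's design text describes lentiviral knock-down in bone marrow-derived macrophages that were given to rats after liposome depletion of their own macrophages. Whether NC and CO rats went through the same depletion and transfer is not said, so depletion, cell transfer and knock-down cannot be told apart in the CLCF1 group. The sources used here give neither the brain region, the age of the rats nor the time after exposure. Nothing in the labels ties the libraries to separate animals, so p-values measure the spread between libraries, which may be technical.

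Libraries held 15.1 to 20.3 M counts. Clcf1 itself had 1 to 7 counts in each NC library, 80 to 118 in each CO library and 0 to 3 in each CLCF1 library, and it fell by 6.67 ± 0.51 (SE) on the log2 scale in CLCF1 against CO (adjusted p = 9.0e-07, quasi-likelihood test in edgeR, Benjamini-Hochberg adjustment). Of the markers of other tissue, 6 muscle genes summed to between 24.6 and 45.6 CPM (counts scaled to library size) in each library, whereas the neuronal gene Snap25 alone reached at least 1714 CPM. Of 9 endothelial markers with a row, only Cldn5 was at 0 in every library. The endothelial list summed to 236 to 354 CPM in NC, 230 to 470 in CO and 230 to 273 in CLCF1. Libraries 3 to 6 of each group stood apart from libraries 1 and 2 in one respect. In NC, 13670 genes had no count in libraries 1 and 2, and 0 of these had a count in any of libraries 3 to 6. The same held for all 14473 such genes in CO and all 14517 in CLCF1, while 777 of the 14447 NC genes at 0 in libraries 3 and 4 had a count in another NC library. Whether libraries 3 to 6 are independent samples was not tested, and values for libraries 1 and 2 alone are therefore given beside the calls below. In those libraries 0 of the 34 members and 0 of 92 other pathway genes passed the threshold in any comparison. In that smaller fit edgeR's quasi-likelihood test passed only 4 genes of 16820 in CO against NC, 8 in CLCF1 against CO and 2 in the comparison of CLCF1 with NC, and 1 member in each comparison had an unadjusted p under 0.05. Clcf1 itself no longer passed there in CLCF1 against CO, so a call missed in that fit is not evidence of no change.

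Promoters are shown for the members that passed the test in a comparison and have an entry in the RefSeq promoter table, since Ldha and Eno2 rose together and Eno2, Pfkm and Slc16a1 fell together in the results below. Each sequence runs on the gene's strand of the GRCr8 build, from 250 bases before the annotated start to 50 bases after it. Capitals mark the core of the hypoxia response element that HIF-1 binds, ACGTG or GCGTG, on either strand, and cores on opposite strands can overlap.
Ldha (chr1:106507842-106508141, plus strand): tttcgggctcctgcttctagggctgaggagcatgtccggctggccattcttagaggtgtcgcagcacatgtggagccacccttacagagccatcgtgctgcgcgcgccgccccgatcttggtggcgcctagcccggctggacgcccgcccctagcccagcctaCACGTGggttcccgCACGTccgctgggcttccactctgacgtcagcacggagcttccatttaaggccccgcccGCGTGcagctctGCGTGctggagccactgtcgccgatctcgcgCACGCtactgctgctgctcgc
Eno2 (chr4:159267171-159267470, minus strand): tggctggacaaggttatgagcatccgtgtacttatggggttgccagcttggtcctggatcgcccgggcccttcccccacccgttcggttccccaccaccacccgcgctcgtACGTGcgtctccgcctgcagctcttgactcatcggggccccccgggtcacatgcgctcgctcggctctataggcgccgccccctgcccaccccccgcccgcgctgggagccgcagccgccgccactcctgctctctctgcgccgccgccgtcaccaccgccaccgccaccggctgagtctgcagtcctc
Pfkm (chr7:131113849-131114148, plus strand): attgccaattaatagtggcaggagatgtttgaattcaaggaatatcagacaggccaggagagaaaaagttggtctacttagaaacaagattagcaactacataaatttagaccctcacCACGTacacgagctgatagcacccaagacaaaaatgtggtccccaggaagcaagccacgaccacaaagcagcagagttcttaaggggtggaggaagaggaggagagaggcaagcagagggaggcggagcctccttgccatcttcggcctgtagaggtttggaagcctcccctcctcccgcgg
Slc16a1 (chr2:194812410-194812709, plus strand): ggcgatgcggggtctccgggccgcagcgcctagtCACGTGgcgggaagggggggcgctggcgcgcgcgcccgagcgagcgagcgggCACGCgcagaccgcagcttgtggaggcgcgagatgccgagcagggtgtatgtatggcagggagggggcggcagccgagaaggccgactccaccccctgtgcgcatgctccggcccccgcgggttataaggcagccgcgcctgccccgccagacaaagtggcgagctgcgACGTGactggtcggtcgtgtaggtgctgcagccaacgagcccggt
Ldha held 6 cores, the most of any member, Slc16a1 held 4, and Eno2 and Pfkm held 1 each. Of the 31 listed genes with an entry, 21 held at least 1 core, which is 67.7%, against 41.6% of all 33469 promoters of the same length. These promoters were richer in G and C, with a median of 60.7% against 51.7%, and among the 9165 promoters with a GC content between 54.3% and 65.8%, 57.3% held a core. A match describes letters in a window and says nothing of binding.

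The members made up 1.45% ± 0.0204 (SD, n = 6) of all counts in NC and 1.59% ± 0.116 in CO, while their share in CLCF1 was 1.5% ± 0.0760. Per kb of gene length and averaged over the groups, the highest was Gapdh, the glycolytic dehydrogenase, at 1769 CPM per kb, followed by the aldolases Aldoa at 1262 and Aldoc at 909. Cytosolic malate dehydrogenase, Mdh1, came next at 785 CPM per kb. The lowest was Slc2a3, the neuronal glucose carrier GLUT3, at 0.41 CPM per kb, below the monocarboxylate carrier Slc16a3 at 1.97 and the inducible hexokinase Hk2 at 2.00. These levels count the named row alone, and several members have further rows with the same protein annotation, as described below.

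**Figure D1:**
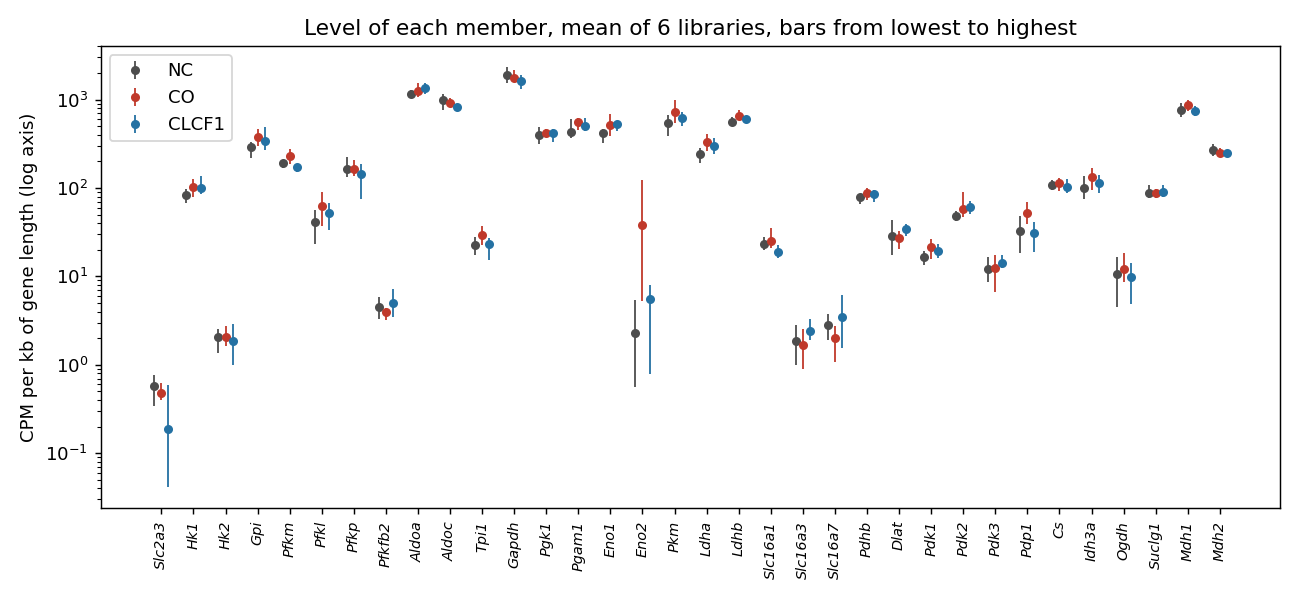
Level of each of the 34 members in CPM per kb of gene length on a log axis. Points are the means of 6 libraries in NC, CO and CLCF1 and bars run from the lowest to the highest library. Gapdh is highest and Slc2a3 lowest, and the bar of Eno2 in CO lies above most of its NC bar.

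In brains exposed to carbon monoxide, 3 of the 34 members rose against NC and 0 fell. They were Eno2, the neuronal enolase, Ldha, the muscle-type lactate dehydrogenase subunit, and Pdp1, the phosphatase that switches pyruvate dehydrogenase on. In the same test 6.32% of all 16581 genes rose and 6.4% fell. In either direction 8.82% of the members passed, against 12.7% of all genes. The count of members that rose was 8 without CO library 2, 1 without NC library 6 and 6 with DESeq2. The median log2 fold change of the members was 0.16, with 25 of 34 above 0, beside 0.01 over all genes, of which 50.7% were above 0. None of the 34 members had CO and NC groups that did not overlap, against 6.35% of all genes. Markers of several cell types moved in the same comparison. Of 9 neuronal markers other than Eno2, 2 rose (Snap25 by 0.48 and Syn1 by 0.62 on the log2 scale) and 0 fell, and their summed level was 5063 to 5671 CPM in NC and 6246 to 6943 in CO, with no overlap. Of 9 astrocyte markers other than Aldoc, 1 fell and 0 rose, and all 9 had log2 fold changes below 0. Their summed level was 5458 to 7532 CPM in NC and 4055 to 7657 in CO. Of 10 oligodendrocyte markers 1 rose and 0 fell, and of 10 microglial markers 1 rose and 1 fell. The 8 pericyte and smooth muscle markers summed to 237 to 306 CPM in NC and 90.7 to 198 in CO, and 3 of them fell. Of the fibroblast and meningeal markers 4 of 8 fell, of the ependymal and choroid plexus markers 3 of 7, and of the red blood cell markers 2 of 5, whose summed level was 12.5 to 692 CPM in NC and 4.07 to 38.8 in CO. The part of these cell type markers in the members' changes was not tested. Because this is whole tissue, fewer cells of a type and less RNA per cell cannot be told apart.

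Eno2, on chromosome 4 from 157285179 to 157294047 in the table's coordinates, had 154, 260, 50, 52, 22 and 29 counts in NC libraries 1 to 6. It had 1493, 183, 739, 734, 4392 and 645 counts in the CO libraries and 257, 295, 168, 329, 299 and 33 in the CLCF1 libraries. CO library 5 stood far above the others, and only CO library 2 lay inside the NC range. Eno2 rose by 4.05 ± 0.74 (SE) on the log2 scale in CO against NC (adjusted p = 0.0026, quasi-likelihood test in edgeR, Benjamini-Hochberg adjustment). Leaving out any 1 library kept the call, with log2 fold changes from 3.18 to 4.52. The value was 2.17 in libraries 1 and 2 alone, where it did not pass, and 5.57 in libraries 3 to 6 alone (adjusted p = 0.0047 by the same test). These values are for the named row. Summed with a second row of the same protein annotation, described below, Eno2 rose by 2.84 ± 0.46 in CO against NC over all libraries.

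Ldha, on chromosome 1 from 102900286 to 102909707, ran from 306 to 455 CPM in NC with a median of 397. In CO it ran from 422 to 653 with a median of 522, and in CLCF1 from 390 to 593 with a median of 476. The groups overlapped, with CO library 2 and NC libraries 2 and 4 sharing the range between them. Ldha rose by 0.45 ± 0.13 (SE) on the log2 scale in CO against NC (adjusted p = 0.031, quasi-likelihood test in edgeR, Benjamini-Hochberg adjustment). The call was lost without NC library 3, 5 or 6 or CO library 1 or 5, with adjusted p up to 0.071 in edgeR's fits. The log2 fold change in libraries 1 and 2 alone was 0.31. Ldhb, the heart-type subunit, differed by 0.24 ± 0.08 and did not pass (adjusted p = 0.065, edgeR).

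Pdp1, on chromosome 5 from 25577451 to 25584288, ran from 51.0 to 132 CPM in NC with a median of 88.9, from 109 to 192 in CO with a median of 140, and from 52.9 to 114 in CLCF1 with a median of 88.0. NC library 3 lay above 3 of the 6 CO libraries, and the other NC libraries lay below all of them. Pdp1 rose by 0.69 ± 0.22 (SE) on the log2 scale in CO against NC (adjusted p = 0.048, quasi-likelihood test in edgeR, Benjamini-Hochberg adjustment). The call was lost without any 1 of 11 libraries (NC 1, 2, 4, 5 or 6, CO 2, 4 or 5, or CLCF1 1, 2 or 6), with adjusted p up to 0.095 in edgeR's fits. Libraries 1 and 2 alone gave 0.75.

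**Figure D2:**
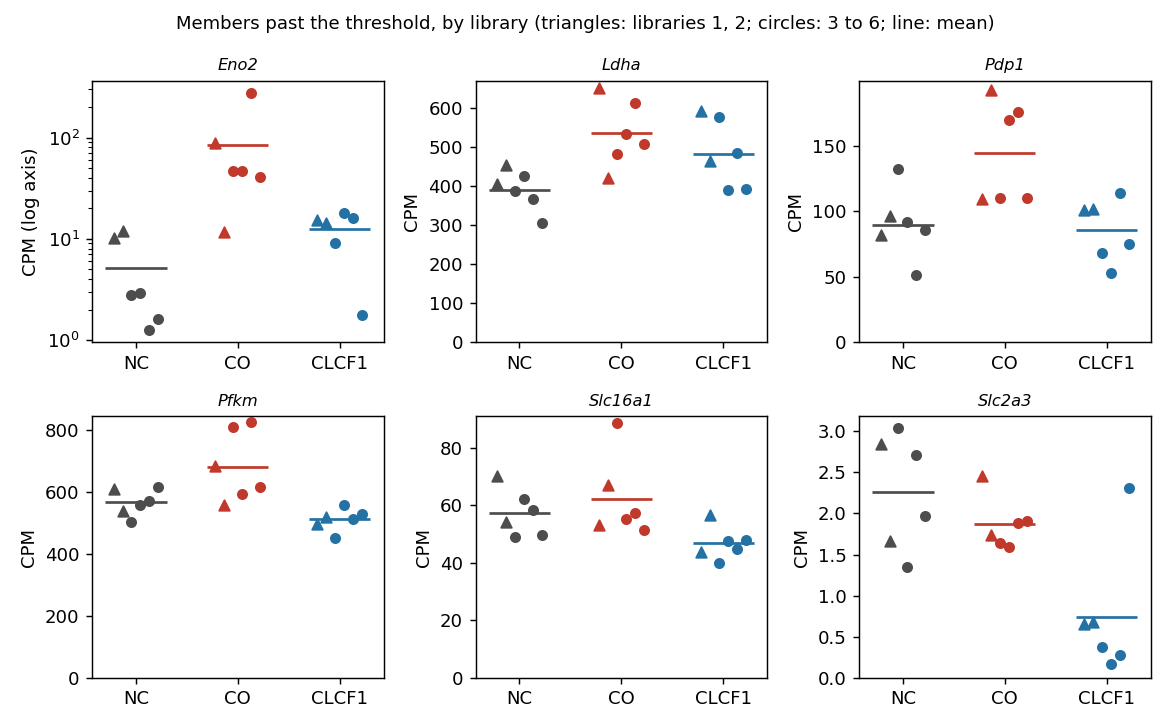
CPM of the 6 members that passed in a comparison, by group, with a log axis for Eno2. Triangles are libraries 1 and 2, circles libraries 3 to 6 and lines group means. Eno2 in CO reaches 276.6 CPM in library 5, and Slc2a3 is at most 3.04 CPM throughout.

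In CLCF1 against CO, where knock-down, depletion and cell transfer cannot be told apart, 4 members fell and 0 rose. They were Pfkm, the muscle-type subunit of phosphofructokinase, the main control step of glycolysis, with Eno2, Pdp1 and Slc16a1, the monocarboxylate carrier MCT1. In this comparison 8.34% of all genes fell and 8.63% rose. In either direction 11.8% of the members passed, against 17% of all genes. The count of members that fell was 2 without CO library 2 or CLCF1 library 3. The members' median log2 fold change was -0.14, with 10 of 34 above 0, beside 0.0018 over all genes. No member had groups that did not overlap, against 7.12% of all genes. This comparison shares the CO libraries with the one before, so a member high in CO moves in both.

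Pfkm, on chromosome 7 from 139685573 to 139722132, ran from 504 to 615 CPM in NC with a median of 564. In CO it ran from 556 to 825 with a median of 650, and in CLCF1 from 450 to 558 with a median of 516. Of the CLCF1 libraries only library 4 reached the lowest CO library, number 2. Pfkm fell by 0.41 ± 0.10 (SE) on the log2 scale in CLCF1 against CO (adjusted p = 0.010, quasi-likelihood test in edgeR, Benjamini-Hochberg adjustment), and leaving out any 1 library kept the call. Libraries 1 and 2 alone gave -0.30. The liver-type subunit Pfkl and the platelet-type subunit Pfkp differed by -0.28 ± 0.22 and -0.18 ± 0.18 and did not pass.

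Eno2 fell by 2.78 ± 0.70 (SE) on the log2 scale in CLCF1 against CO (adjusted p = 0.011, quasi-likelihood test in edgeR, Benjamini-Hochberg adjustment), and the log2 fold change in libraries 1 and 2 alone was -1.78. Pdp1 fell by 0.76 ± 0.22 (SE) in the same fit (adjusted p = 0.024 by edgeR), a call lost without CO library 2 or CLCF1 library 3, with -0.59 in libraries 1 and 2 alone. Against NC, Eno2 in CLCF1 differed by 1.27 ± 0.69 and Pdp1 by -0.07 ± 0.22, and neither passed. Of the 9 neuronal markers other than Eno2, 2 fell and 1 rose in CLCF1 against CO. Their summed level was 6246 to 6943 CPM in CO and 5658 to 6772 in CLCF1, and its part in the Eno2 result was not tested.

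Slc16a1, on chromosome 2 from 207108552 to 207128554, ran from 49.1 to 70.0 CPM in NC with a median of 56.3, from 51.5 to 88.4 in CO with a median of 56.4, and from 40.1 to 56.5 in CLCF1 with a median of 46.0. Only CLCF1 library 2 reached into the CO range. Slc16a1 fell by 0.41 ± 0.14 (SE) on the log2 scale in CLCF1 against CO (adjusted p = 0.043, quasi-likelihood test in edgeR, Benjamini-Hochberg adjustment). The call was lost without any 1 of 8 libraries (NC 2, CO 2 or 3, or CLCF1 1, 3, 4, 5 or 6), with adjusted p up to 0.104 in edgeR's fits, and the value in libraries 1 and 2 alone was -0.27. In brain, MCT1 is known from endothelium and oligodendrocytes. Of 10 oligodendrocyte markers, 4 also fell in this comparison (Mag by 1.00, Olig2 by 0.76, Cldn11 by 0.66 and Olig1 by 0.44 on the log2 scale) and 0 rose. The summed level of the 10 ran from 10856 to 21553 CPM in CO and from 8518 to 17066 in CLCF1, and its part in the Slc16a1 result was not tested. Of 8 endothelial markers tested in this comparison, 1 rose and 1 fell. Their median log2 fold change was 0.12, with 5 above 0, and their part was not tested either.

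In CLCF1 against NC 1 member fell and 0 rose, beside 4.84% and 4.43% of all genes. In either direction 2.94% of the members passed, against 9.26% of all genes. The members' median log2 fold change was 0.13, with 22 of 34 above 0, beside 0.01 over all genes. No member's groups were free of overlap, against 5.63% of all genes.

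The member that fell was Slc2a3, and a second row with its protein annotation gave a different result. The named row, on chromosome 4 from 155408233 to 155631856, held 43, 36, 54, 24, 48 and 35 counts in NC, 41, 27, 26, 25, 30 and 30 in CO, and 11, 14, 7, 3, 5 and 43 in CLCF1. All CLCF1 libraries but number 6 lay below every NC and CO library. The row fell by 1.59 ± 0.45 (SE) on the log2 scale in CLCF1 against NC (adjusted p = 0.034, quasi-likelihood test in edgeR, Benjamini-Hochberg adjustment), a call lost without NC library 1, 3 or 5 or CLCF1 library 2, 3, 4 or 5, with adjusted p up to 0.068. In libraries 1 and 2 alone the value was -1.77. The named row differed by -0.27 ± 0.43 in CO against NC and by -1.32 ± 0.45 in CLCF1 against CO. Neither passed (adjusted p = 0.72 and 0.052, quasi-likelihood test in edgeR).

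A second row with the same GLUT3 protein annotation, AABR07061980.1, lies on the same chromosome from 155752447 to 155763500. It was singled out after its values were seen. It held 3, 5, 0, 0, 0 and 0 counts in NC, 382, 96, 227, 291, 428 and 385 in CO, and 12, 145, 29, 35, 8 and 64 in CLCF1. Every CO library was above every NC library, and every CLCF1 library was above every NC library. The row rose by 7.87 ± 0.82 (SE) on the log2 scale in CO against NC (adjusted p = 6.3e-05), fell by 2.89 ± 0.57 in CLCF1 against CO (adjusted p = 0.0029) and rose by 4.97 ± 0.82 in CLCF1 against NC (adjusted p = 0.0014), all by quasi-likelihood test in edgeR, Benjamini-Hochberg adjustment. In libraries 1 and 2 alone the values were 6.01, -1.92 and 4.09, and none passed. With both rows summed, GLUT3 rose by 3.15 ± 0.47 in CO against NC (adjusted p = 0.0011, edgeR) and fell by 2.68 ± 0.46 in CLCF1 against CO (adjusted p = 0.0012, edgeR), with 2.74 and -1.89 in libraries 1 and 2 alone, neither passing. The summed value in CLCF1 against NC was 0.47 ± 0.46, on the other side of 0 from the named row, and did not pass, with 0.85 in libraries 1 and 2 alone. In CO against NC, too, the named row and the sum lay on opposite sides of 0. The sources used here do not give how reads were assigned between the rows. The direction of GLUT3 mRNA in CO against NC and in CLCF1 against NC is therefore uncertain.

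Other members also had rows with the same protein annotation. For Eno2 this was LOC100911625 on chromosome 9, from 20251521 to 20260505, with 89 to 338 counts in NC, 263 to 937 in CO and 71 to 341 in CLCF1. It rose by 1.57 ± 0.39 (SE) in CO against NC (adjusted p = 0.014) and fell by 1.45 ± 0.38 in CLCF1 against CO (adjusted p = 0.015), both by quasi-likelihood test in edgeR, Benjamini-Hochberg adjustment, and was 1.36 and -1.12 in libraries 1 and 2 alone. Summed, enolase 2 rose by 2.84 ± 0.46 and fell by 2.28 ± 0.45, with 1.77 and -1.46 in libraries 1 and 2 alone. For Tpi1, triosephosphate isomerase, LOC100911515 on chromosome 9 carried a mean of 1827 counts, and the summed rows fell by 0.67 ± 0.22 in CLCF1 against CO (adjusted p = 0.037, edgeR), with -0.39 in libraries 1 and 2 alone. Tpi1's own row differed by -0.35 ± 0.16 there and did not pass. Eno2 and Tpi1 lie 34.3 kb apart on chromosome 4. The rows with their annotations, LOC100911515 (from 20213588 to 20217176) and LOC100911625, likewise lie close together on chromosome 9. Whether the chromosome 9 rows duplicate the chromosome 4 rows was not tested, and how reads were assigned between them is not given. LOC100911625 is therefore not independent evidence for Eno2, and the size of the change in the named Eno2 row is uncertain. For Gapdh, LOC685186 carried a mean of 9039 counts and RGD1565368 a mean of 7873, and all rows summed differed by -0.0034 ± 0.094 in CO against NC and did not pass. Some single Gapdh rows did pass. RGD1565368 fell by 0.53 ± 0.13 in CLCF1 against CO and by 0.43 ± 0.13 against NC (adjusted p = 0.0099 and 0.042, quasi-likelihood test in edgeR). Gapdh-ps2 and AABR07048308.1, with means of 118 and 52.9 counts, rose by 0.74 ± 0.14 and 0.60 ± 0.18 in CO against NC (adjusted p = 0.0025 and 0.037, same test). Summed Ldha still rose by 0.43 ± 0.13 in CO against NC (adjusted p = 0.037, edgeR), with 0.31 in libraries 1 and 2 alone. For Pkm, a second row named Pkm and AABR07044711.1 rose by 0.70 ± 0.22 and 0.63 ± 0.20 in CO against NC (adjusted p = 0.046 and 0.043, edgeR). All Pkm rows summed differed by 0.43 ± 0.15 there and did not pass. Single rows of Tpi1, Eno1 and Ldha passed in other comparisons. Such single rows of Gapdh, Pkm, Tpi1, Eno1 and Ldha were picked after their values were seen, and libraries 1 and 2 alone are not given for them.

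**Figure D3:**
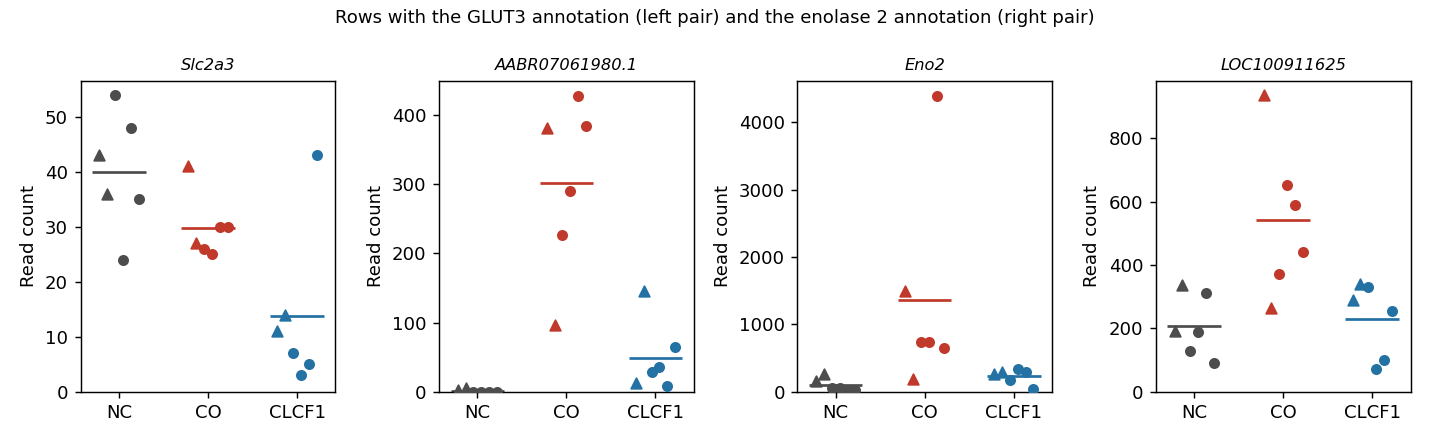
Read counts per library of the rows that carry the GLUT3 annotation (Slc2a3 and AABR07061980.1) and the enolase 2 annotation (Eno2 and LOC100911625). Triangles are libraries 1 and 2, circles libraries 3 to 6 and lines group means. AABR07061980.1 has at most 5 counts in NC and at least 96 in CO, while Slc2a3 is lowest in CLCF1.

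The other members did not pass in any comparison. Of the entry and upper steps, Hk1, the brain's main hexokinase, ran at 222 ± 27.3 CPM (SD, n = 6) in NC, 273 ± 54.7 in CO and 271 ± 52.5 in CLCF1, and Hk2 at 11.2 ± 2.21, 11.3 ± 2.13 and 10.1 ± 4.05. Pfkl had a log2 fold change of 0.61 ± 0.22 (SE) in CO against NC (adjusted p = 0.071, edgeR), the highest among members that did not pass. Gpi, glucose-6-phosphate isomerase, differed by 0.39 ± 0.15, and Pfkfb2, one of the enzymes that make the phosphofructokinase activator fructose-2,6-bisphosphate, by -0.19 ± 0.18. Pfkp differed by -0.01 ± 0.18 there, Aldoa by 0.12 ± 0.10, Aldoc, the astrocyte aldolase, by -0.08 ± 0.10 and Tpi1 by 0.39 ± 0.16.

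In the lower steps of the pathway, log2 fold changes in CO against NC were 0.42 ± 0.15 (SE) for the pyruvate kinase Pkm, 0.35 ± 0.12 for the phosphoglycerate mutase Pgam1 and 0.31 ± 0.13 for the widely expressed enolase Eno1. They were 0.07 ± 0.11 for the phosphoglycerate kinase Pgk1 and -0.11 ± 0.12 for Gapdh. Of the lactate carriers, Slc16a7 (MCT2, known from neurons) ran from 4.73 to 9.21 CPM in NC, from 2.67 to 6.68 in CO and from 3.79 to 15.2 in CLCF1, and differed by 0.77 ± 0.28 in CLCF1 against CO (adjusted p = 0.067, edgeR). Slc16a3 (MCT4, known from astrocytes) was at 4.01 ± 1.54 CPM (SD, n = 6) in NC, 3.55 ± 1.47 in CO and 5.11 ± 1.38 in CLCF1.

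At the entry to the citrate cycle, the kinases that switch pyruvate dehydrogenase off differed in CO against NC by 0.37 ± 0.13 (SE) for Pdk1, 0.28 ± 0.15 for Pdk2 and 0.05 ± 0.21 for Pdk3. The subunits Pdhb and Dlat differed by 0.15 ± 0.10 and -0.08 ± 0.17, and the row LOC100365902 with the PDHA1 annotation by 0.41 ± 0.15. Within the cycle, isocitrate dehydrogenase Idh3a differed by 0.40 ± 0.16, Ogdh, of the oxoglutarate dehydrogenase complex, by 0.21 ± 0.30, Mdh1 by 0.18 ± 0.10, citrate synthase Cs by 0.09 ± 0.11, the succinyl-CoA ligase subunit Suclg1 by 0.01 ± 0.11, and mitochondrial Mdh2 by -0.11 ± 0.09. None of these 6 passed in any comparison.

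**Figure D4:**
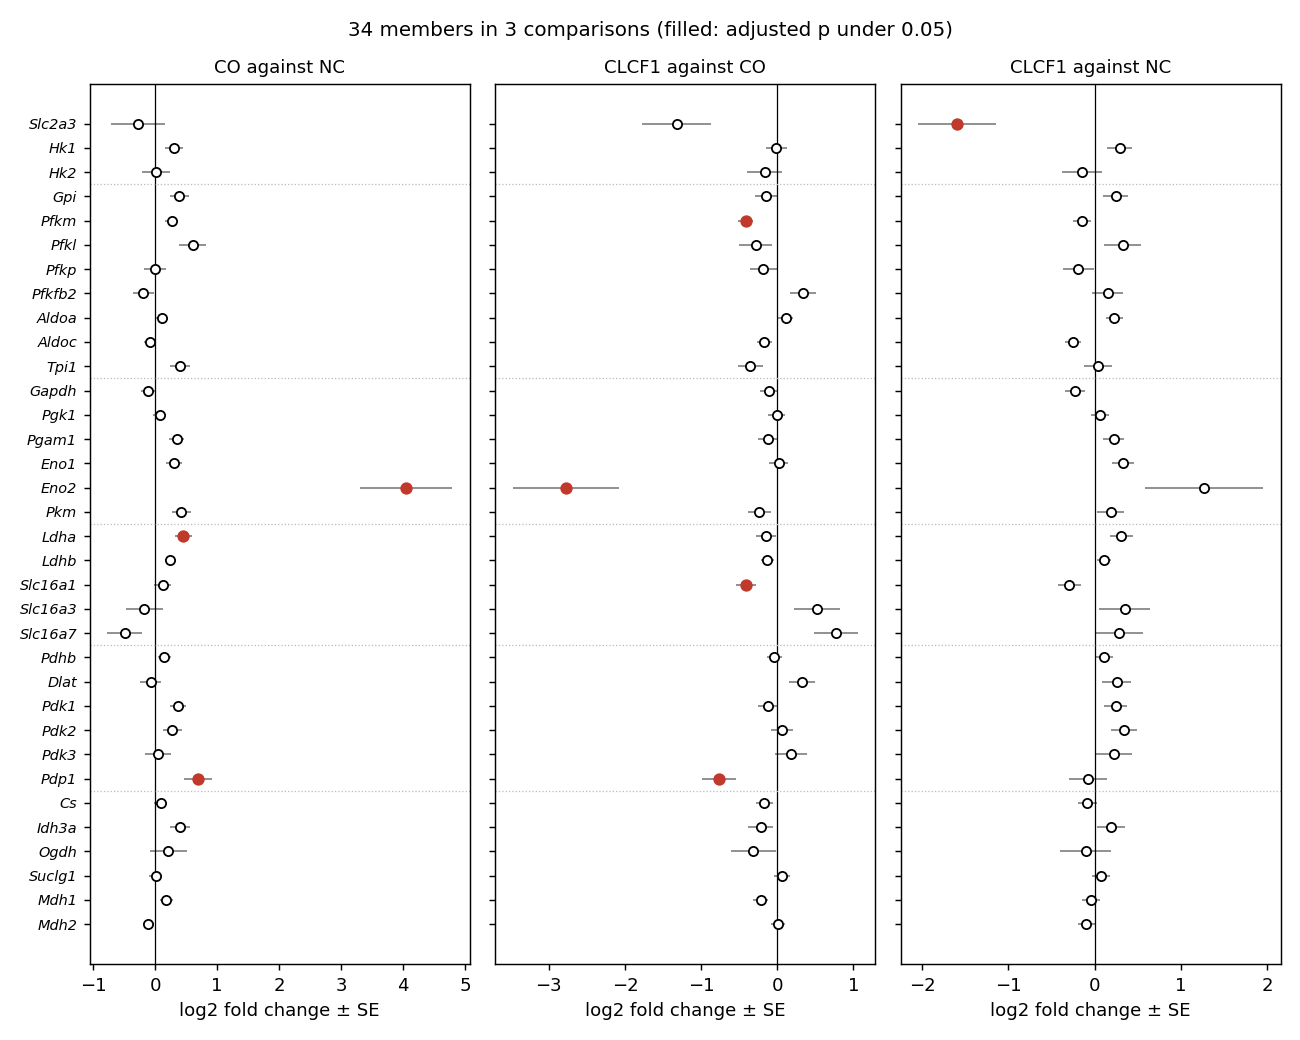
log2 fold change with its SE for the 34 members in the 3 comparisons, ordered by role from glucose entry at the top to the citrate cycle at the bottom, with dotted lines between roles. Filled points passed an adjusted p of 0.05. Eno2 stands at 4.05 and -2.78 in the first 2 panels and Slc2a3 at -1.59 in the last.

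Ratios between isozymes were compared within each library, in 11 pairs and 3 comparisons, 33 exact two-sided permutation tests in all, of which 5 passed Benjamini-Hochberg adjustment. The smallest p the design allows is 0.0022. The log2 ratio of Eno2 to Eno1 was -7.74 ± 1.26 (SD, n = 6) in NC and -4.15 ± 1.21 in CO, with no overlap (exact permutation p = 0.0022, adjusted 0.036), and -6.61 ± 1.32 in CLCF1, lower than in CO (exact permutation p = 0.0043, adjusted 0.043). It used the named Eno2 row alone, which held 567 counts over the NC libraries together and 8186 over CO. LOC100911625, with the same annotation, held 1243 and 3254. A ratio with both rows was not tested. The log2 ratio of Slc16a1 to Slc16a7 was 3.03 ± 0.28 in NC and 3.64 ± 0.30 in CO, with no overlap (exact permutation p = 0.0022, adjusted 0.036), and 2.57 ± 0.66 in CLCF1, lower than in CO (exact permutation p = 0.0065, adjusted 0.043). For this ratio NC and CO nearly met, with NC library 1 at 3.39 and CO library 2 at 3.41, and neither gene passed alone in CO against NC. Aldoc against Aldoa fell from -0.19 ± 0.24 in NC to -0.66 ± 0.19 in CLCF1 (exact permutation p = 0.0065, adjusted 0.043).

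These ratio calls were often lost when 1 of the 18 libraries was left out, which also raises the smallest p that the tests allow. Aldoc to Aldoa lost its call in 16 of 18 such tests, with adjusted p up to 0.095 (exact permutation). In CLCF1 against CO, Slc16a1 to Slc16a7 lost its call in 15 and Eno2 to Eno1 in 10, and in CO against NC they lost it in 6 and 5. No difference changed sign: those of Eno2 to Eno1 ran from 3.20 to 3.94 in CO against NC and from -2.82 to -1.95 in CLCF1 against CO, those of Slc16a1 to Slc16a7 from 0.50 to 0.69 and from -1.26 to -0.89, and those of Aldoc to Aldoa from -0.53 to -0.40.

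In libraries 1 and 2 alone the differences were 1.43 and -1.28 for Eno2 to Eno1, 0.34 and -0.64 for Slc16a1 to Slc16a7 and -0.33 for Aldoc to Aldoa, each in the same direction, where the number of libraries allows no call. Ldha against Ldhb did not pass in any comparison, where the log2 ratio was -0.94 ± 0.25 in NC, against -0.73 ± 0.23 in CO and -0.75 ± 0.27 in CLCF1 (exact permutation p = 0.15 in CO against NC). Per kb, Ldhb was 2.32 ± 0.42 (SD, n = 6) times as high as Ldha in NC. The ratio of Mdh2 to Mdh1 was 0.29 lower in CO than in NC on the log2 scale and missed the threshold (exact permutation p = 0.015, adjusted 0.083).

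**Figure D5:**
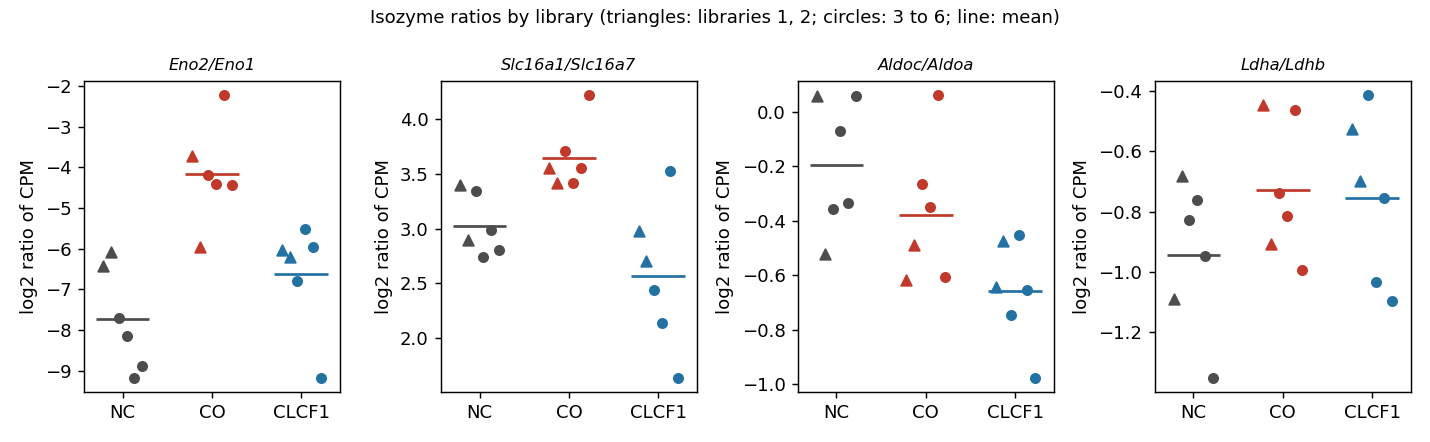
log2 ratio of CPM between isozymes in each library, for Eno2 to Eno1, Slc16a1 to Slc16a7, Aldoc to Aldoa and Ldha to Ldhb. Triangles are libraries 1 and 2, circles libraries 3 to 6 and lines group means. The CO libraries lie above all NC libraries for the first 2 ratios, and the groups overlap for Ldha to Ldhb.

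Of 91 other genes of these pathways that were tested, 8 rose and 3 fell in CO against NC, 8 rose and 7 fell in CLCF1 against CO, and 3 rose and 2 fell in CLCF1 against NC. These are 12.1%, 16.5% and 5.49% of the 91, and in either direction 12.7%, 17% and 9.26% of all genes passed, so that in no comparison did a larger share of them pass than of all genes. Slc2a1, the glucose carrier GLUT1 of the blood-brain barrier, was at 119 ± 26.3 CPM (SD, n = 6) in NC, 211 ± 51.3 in CO and 97.1 ± 12.7 in CLCF1. It rose by 0.83 ± 0.17 (SE) in CO against NC (adjusted p = 0.0050) and fell by 1.12 ± 0.17 in CLCF1 against CO (adjusted p = 0.00059), both by quasi-likelihood test in edgeR, Benjamini-Hochberg adjustment. Another endothelial marker, Abcb1a, fell by 0.89 in CO against NC, and of 8 endothelial markers tested 1 rose, Slc2a1 itself, and 1 fell. Slc2a6, an intracellular hexose carrier, rose by 0.47 in CO against NC, and the related Slc2a8 fell by 0.34 in CLCF1 against CO. Slc2a12 fell by 0.61 in the first of these comparisons and rose by 0.92 in the second. Libraries 1 and 2 alone gave 0.45 for Slc2a6, -0.34 for Slc2a8, and -0.46 and 0.82 for Slc2a12.

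Pdk4, the fasting-induced pyruvate dehydrogenase kinase, was at 1.84 ± 0.77 CPM (SD, n = 6) in NC, 11.5 ± 5.42 in CO and 2.04 ± 1.76 in CLCF1. It rose by 2.64 ± 0.47 (SE) in CO against NC (adjusted p = 0.0021) and fell by 2.48 ± 0.47 in CLCF1 against CO (adjusted p = 0.0023), by quasi-likelihood test in edgeR, Benjamini-Hochberg adjustment. Pfkfb3, which makes the activator of phosphofructokinase, rose by 0.74 ± 0.19 (adjusted p = 0.018) and fell by 0.70 ± 0.19 (adjusted p = 0.019) in the same comparisons and test. In libraries 1 and 2 alone the values were 0.76 and -1.08 for Slc2a1, 2.18 and -1.63 for Pdk4, and 0.71 and -0.66 for Pfkfb3, none passing.

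Also in CO against NC, Gpd1l, related to glycerol-3-phosphate dehydrogenase, rose by 0.61 and Hcar1, the lactate receptor, fell by 1.58. Gpd1 itself, named after its values were seen, rose by 2.13. In libraries 1 and 2 alone these were 0.39 for Gpd1l, -1.54 for Hcar1 and 1.87 for Gpd1. In CLCF1 against CO, Idh1, Idh2 and the malic enzyme Me1 rose by 0.71, 0.51 and 0.34, the phosphatase Pdp2 by 1.05, and Rpe of the pentose phosphate pathway by 0.52, while Acly, which makes acetyl-CoA from citrate, fell by 0.36 and Vhl, which targets HIF for destruction, by 0.29. Libraries 1 and 2 alone gave 0.51 for Idh1, 0.41 for Idh2, 0.20 for Me1, 0.73 for Pdp2, 0.40 for Rpe, -0.19 for Acly and -0.22 for Vhl. In CLCF1 against NC, Gpd1l rose by 0.74, while Ldhd, a D-lactate dehydrogenase, fell by 0.66 and the brain glycogen phosphorylase Pygb by 0.49, with 0.43, -0.56 and -0.42 in libraries 1 and 2 alone. Pfkfb1, the liver form, had 1 count over the 6 NC libraries together, 18 over CO and 100 over CLCF1. In libraries 1 and 2 these were 1 and 0 in NC, 9 and 0 in CO, and 18 and 18 in CLCF1. Over all libraries, the ratio of CLCF1 to NC was 96.7, with a 95% interval from 17.0 to 3858 that covers counting error only.

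Slc16a8, a lactate carrier known from choroid plexus and retinal pigment epithelium, rose by 2.64 ± 0.76 (SE) in CLCF1 against CO (adjusted p = 0.023) and by 3.55 ± 0.81 against NC (adjusted p = 0.012), by quasi-likelihood test in edgeR, Benjamini-Hochberg adjustment. All 7 ependymal and choroid plexus markers with a row also rose in CLCF1 against CO, and their summed level was 1.83 to 42.0 CPM in CO and 60.2 to 5934 in CLCF1. Their part in the Slc16a8 result was not tested. For Slc16a8, libraries 1 and 2 alone gave 2.73 and 2.36. Of the 9 hypoxia factors and oxygen sensors tested, 0 passed in CO against NC by edgeR's quasi-likelihood test, with 1 at an unadjusted p under 0.05. Hif1a had a log2 fold change of 0.08 ± 0.13 and its partner Arnt one of 0.03 ± 0.32.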

How the data were processed

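The values are raw read counts for each gene and library, which the authors deposited in a single table without normalization. Per the labels' protocols, column-purified total RNA entered a SMARTER mRNA-Seq kit. The sources used here name no aligner, counter or strand setting, so reads of overlapping, antisense or near-identical genes cannot be separated. The builds in the submitters' processing notes are of mouse (GRCm38, mm10), but the table's gene IDs are of rat, and its coordinates are printed with no build.

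Members were rows whose gene name equalled a listed gene, ignoring case, taking the row with the highest mean count where several did (Pkm). The members and the other lists were chosen with earlier results of these data known. All 34 members are named; members past the threshold are described by library, and of each other list up to 3 genes with the smallest p among those past it in each comparison, besides Clcf1, Slc2a1, Pfkfb3, Pdk4, Hif1a and Arnt.

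Counts were tested in R 4.3.3 with edgeR 4.0.16 (TMM scaling, filterByExpr, quasi-likelihood fit over all 18 libraries, Benjamini-Hochberg adjustment over 16581 genes, threshold 0.05). The CPM use TMM-scaled library sizes. Ratios used log2 CPM with a prior count of 2 and exact permutation tests. Alternatives used DESeq2 1.42.0, limma 3.58.1 with sample weights, other scalings and filters, the library number as a block, libraries 1 and 2 or 3 to 6 alone, only the groups compared, and each library left out. The sum of rows with one protein annotation was added after the data were seen. Figures used Python 3.11.15 and matplotlib 3.10.9. The edgeR fit was tested on simulated data for CO against NC over 11451 genes with a mean count above 100. Libraries were drawn independently, with the same dispersion of 0.1 for every gene, near the common value of 0.0972 measured. The fit recovered 54% of genes changed by 1 on the log2 scale and 100% of those changed by 2, and called 0.044% of unchanged genes. These shares do not cover genes of lower count, such as Slc2a3, genes of wider spread, such as Eno2, or libraries that are not independent. No 2 libraries of a group agreed within sampling noise, with chi-square per degree of freedom of at least 39.1 over 45 pairs.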

Additional observations from a re-analysis of the deposited data

Results flagged for a closer look

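For each of the 34 members and 3 groups, the library farthest from its neighbours was compared with the spread of its group of 6. In 7 of 102 such groups, or 6.86%, 1 library stood apart by Dixon's 95% criterion, where chance alone flags about 1 in 20.

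The highest CO library was far from the rest for Eno2 (library 5, 276.6 CPM), Gapdh (library 1, 2142 CPM), Pdk2 (library 3, 110.9 CPM) and Slc2a3 (library 1, 2.452 CPM). In CLCF1, Slc2a3 was far above the others in library 6 (2.314 CPM), and Eno1 was far below the others in library 4 (826.7 CPM). In NC, Pgam1 was highest in library 5 (1053 CPM). Of these, the Eno2 calls and the Slc2a3 call are the ones that a result above rests on. Without CO library 5 the Eno2 calls held, and without CLCF1 library 6 the Slc2a3 call held.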

How the results depend on the processing

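Counts below are of genes past the threshold. In CO against NC, members higher numbered 3, and 1 with library size alone, 6 with DESeq2, 0 in libraries 1 and 2 alone, 1 in libraries 3 to 6 alone and 1 to 8 with each library left out (8 without CO 2, 1 without NC 6). All genes called numbered 2110, and 4291 without a filter, 4 in libraries 1 and 2 and 918 in libraries 3 to 6. Other pathway genes numbered 11, and 0, 3 and, with only the groups compared, 7. In CLCF1 against CO, members higher numbered 0, and 1 with DESeq2 and 0 to 1 with a library left out. Members lower numbered 4, and 0 in libraries 1 and 2, 1 in libraries 3 to 6 and 2 to 4 with a library left out. All genes numbered 2814, and 5645 without a filter, 8 and 1436. Other pathway genes numbered 15, and 0, 5 and, with only the groups compared, 8. In CLCF1 against NC, members higher numbered 0, and 0 to 1 with a library left out. Members lower numbered 1, and 0 in libraries 1 and 2, in libraries 3 to 6, with rows of the same protein summed and with only the groups compared, and 0 to 2 with a library left out. All genes numbered 1536, and 4292 without a filter, 2334 with DESeq2, 2 and 736. Other pathway genes numbered 5, and 2 with a stricter filter, 3 with the replicate block, 0 and 3 in the library subsets and 3 to 6 with a library left out. The Clcf1 log2 fold change was -6.05 in libraries 1 and 2 alone and no longer passed. Isozyme ratios past the threshold numbered 5, and 0 in either library subset and 0 to 5 with a library left out, where fewer libraries raise the smallest possible p. With rows of the same protein summed, Slc2a3 in CLCF1 against NC changed sign to 0.47. Otherwise the cause was not tested. The library number did not pair the samples: 1 of 18 correlations of same-numbered deviations was above 0.1, with a range from -0.028 to 0.15. With the replicate block, Pdp1 in CO against NC (0.67) and Slc16a1 in CLCF1 against CO (-0.40) no longer passed. Slc2a3's named row had 3 to 54 counts per library, which limits its precision.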
